A study of Mus musculus with 8 samples.

Results

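The genes described here are 10 members of the NF-κB system: the subunit genes Rela, Relb, Nfkb1 and Nfkb2, the inhibitor genes Nfkbia, Nfkbie and Tnfaip3, and the target genes Tnfaip2, Birc3 and Traf1. They were taken by name from 20408 genes in 8 single-cell expression matrices of sorted mouse tumour endothelial cells (ECs), and all 10 passed the filter on low values. Levels were read in cells with at least 1 Pecam1 transcript, which were 7159 of 8204 deposited cells. The study asked how tumour ECs respond to cGAMP, a cyclic dinucleotide that activates the innate immune receptor STING. Spontaneous tumours arose in MMTV-PyMT mice, in which the MMTV promoter drives the polyoma middle T oncogene, and implanted tumours grew from cells of such tumours that had been cultured briefly and placed in the mammary fat pad. Either PBS or cGAMP was injected into the tumour, and live CD31+ CD45- cells were collected 3 h later from adult mice. This gave 4 groups of 2 libraries (spontaneous PBS, spontaneous cGAMP, implanted PBS, implanted cGAMP), with 2 mice per group by the study's methods. The labels give the strain as C57BL/6 and the methods name FVB for MMTV-PyMT mice, so the strain was not settled here.

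NF-κB is a family of dimeric transcription factors that wait in the cytoplasm, bound to inhibitor proteins of the IκB family. Signals from cytokine receptors and from STING activate kinases that mark the inhibitors for destruction, and the freed dimers enter the nucleus and switch on inflammatory and survival genes. Several of these targets encode the pathway's own inhibitors and subunits, which makes their transcripts a common readout of recent NF-κB activity in ECs.

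The promoter windows of several members hold matches to the κB consensus, the sequence that NF-κB dimers bind. Of the 5 genes called for cGAMP in implanted tumours 4 have one, as does Nfkb2, which was not called. The members were chosen as genes of the NF-κB system, so their matches say nothing about the response to cGAMP. RefSeq windows (build GRCm38.p6, 250 bases before to 50 bases after a gene's start) were present for 8 of the 10 members, and none was used for Nfkb1 and Relb. The consensus, searched on both strands, matched in windows of 5 of these 8 members (Nfkbia, Nfkbie, Tnfaip3, Tnfaip2 and Nfkb2). By window, the consensus matched in 7 of the 11 windows of these members and in 8.46% of all 32851 windows. The core of the interferon-stimulated response element, TTTCNNTTTC, was in none of the members' windows and in 3.44% of all windows. The stretches below are written 5′ to 3′ on the gene's strand, with the bases of a match in capitals. The Nfkbia and Nfkbie stretches end at the RefSeq start, and the others give 30 bases around each match. In Nfkb2, 2 matches overlap within its first stretch.
Nfkbia, chr12:55492648-55492897, minus strand: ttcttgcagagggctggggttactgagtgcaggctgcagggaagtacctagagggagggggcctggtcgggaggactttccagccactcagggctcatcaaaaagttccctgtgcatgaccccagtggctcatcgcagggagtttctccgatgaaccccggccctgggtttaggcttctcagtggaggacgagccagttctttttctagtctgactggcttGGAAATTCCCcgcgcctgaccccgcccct
Nfkbie, chr17:45555450-45555699, plus strand: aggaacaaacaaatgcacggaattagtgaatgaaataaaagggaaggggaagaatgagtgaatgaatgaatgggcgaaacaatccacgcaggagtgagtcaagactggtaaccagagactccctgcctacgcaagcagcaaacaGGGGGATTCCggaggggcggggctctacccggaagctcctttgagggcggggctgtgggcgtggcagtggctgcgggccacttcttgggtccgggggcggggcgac
Tnfaip3, chr10:19015516-19015545, minus strand: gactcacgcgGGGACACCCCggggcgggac
Tnfaip3, chr10:19015403-19015432, minus strand: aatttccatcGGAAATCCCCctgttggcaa
Tnfaip2, chr12:111442627-111442656, plus strand: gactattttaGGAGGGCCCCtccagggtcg
Nfkb2, chr19:46304688-46304717, plus strand: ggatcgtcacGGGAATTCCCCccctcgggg
Nfkb2, chr19:46304716-46304745, plus strand: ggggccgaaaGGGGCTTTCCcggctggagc
Of the matches shown, the one nearest to the RefSeq start began 29 bases before it in Nfkbia, 106 in Nfkbie, 12 in Tnfaip3, 24 in Tnfaip2 and 11 in Nfkb2. No match lay in the windows of Rela, Birc3 and Traf1.

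Libraries held 601 to 1529 Pecam1 cells with a median of 9523 to 14710 transcripts (unique molecular identifiers, UMIs) per cell, except implanted cGAMP replicate 1, with a median of 3049. In that library 37.9% of Pecam1 cells had under 2000 UMIs and 75.5% of deposited cells had a Pecam1 UMI, against at least 88.7% in the others. Levels are given as CPM, the mean over cells of UMIs scaled to a common total per cell, and the 9 endothelial markers, none at 0 in all libraries, summed to 6347 to 7584 CPM. Across libraries 7 cell barcodes were shared, with no identical cells. The 8 libraries entered 1 limma fit of log2(mean CPM over cells + 1) over 10424 genes, and a gene was called when its Benjamini-Hochberg adjusted p was under 0.05. No source used here ties each library to 1 mouse, so p-values measure only the spread between these samples.

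In implanted tumours 5 of the 10 members rose after cGAMP and none fell, against 8.60% of all genes called higher. The members were chosen with earlier results of these data known, so the share is a description and no independent test. The 5 were the inhibitors Nfkbia, Nfkbie and Tnfaip3 and the targets Tnfaip2 and Birc3, while none of the subunits was called. The members' median log2 fold change was 0.49, and that of all genes was -0.10. In bulk means such as these, a change in the mix of cells and a change within cells cannot be told apart.

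**Figure D1:**
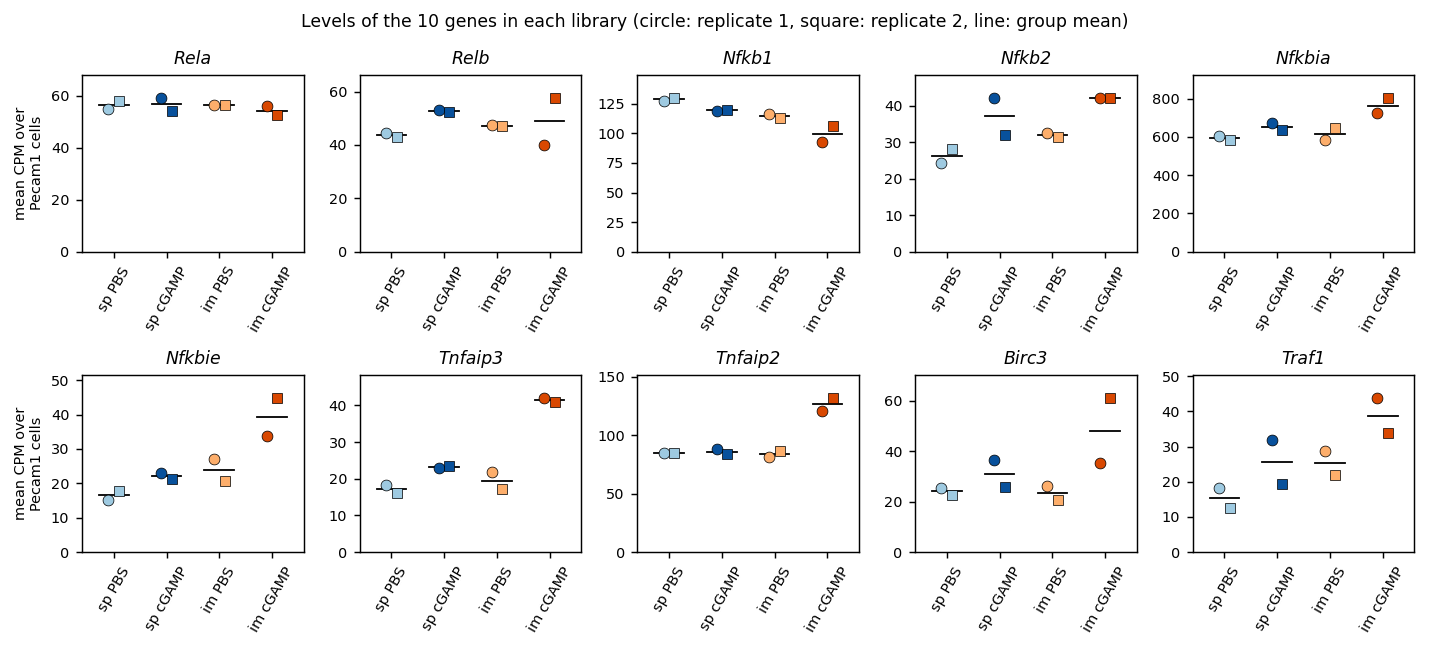
Mean CPM over Pecam1 cells (vertical axes, from 0, each gene on its own scale) for spontaneous (sp) and implanted (im) tumours after PBS or cGAMP. Points are the 2 libraries of each group and lines are group means. For Nfkbia, Nfkbie, Tnfaip3, Tnfaip2 and Traf1 both implanted cGAMP libraries lie above the other 6. The share of all genes with this order was not counted. Rela stays between 52.4 and 59.2 CPM in all 8.

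Tnfaip3, which encodes the ubiquitin-editing inhibitor A20, was at 21.7 and 17.3 CPM after PBS and rose to 42.0 and 40.8 CPM after cGAMP in implanted tumours. The groups did not overlap, and both treated libraries also exceeded the spontaneous cGAMP libraries (22.9 and 23.4 CPM). The log2 fold change was 1.06 ± 0.14 (SE; limma adjusted p = 0.000635). Tnfaip2, a TNF-induced gene of ECs, was at 81.4 and 86.2 CPM after PBS and at 121 and 132 CPM after cGAMP. Its log2 fold change was 0.59 ± 0.08 (SE; limma adjusted p = 0.00118). The calls of these 2 genes held under every alternative run for this comparison.

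Nfkbia encodes IκBα, the inhibitor that is degraded and then resynthesised in each round of signalling. It was at 585 and 645 CPM after PBS and at 723 and 805 CPM after cGAMP in implanted tumours, a log2 fold change of 0.31 ± 0.08 (SE; limma adjusted p = 0.0198). Nfkbie, which encodes IκBε, went from 27.1 and 20.5 CPM to 33.7 and 44.9 CPM, a log2 fold change of 0.70 ± 0.18 (SE; limma adjusted p = 0.0180). Birc3 encodes the ubiquitin ligase cIAP2, which acts downstream of the TNF receptor and limits cell death. It was at 26.2 and 20.6 CPM after PBS and at 35.2 and 61.2 CPM after cGAMP, a log2 fold change of 0.97 ± 0.25 (SE; limma adjusted p = 0.0196). In these 3 genes, picked by their call, the groups did not overlap, but the 2 treated libraries of Birc3 lay far apart. The share of all genes without overlap was not counted. None of the 3 was called without implanted cGAMP replicate 2 (Nfkbia 0.23, Nfkbie 0.49 and Birc3 0.58 on the log2 scale), nor was Nfkbie or Birc3 without implanted PBS replicate 2 (0.50 and 0.80) or Nfkbia without implanted PBS replicate 1 (0.24).

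None of the subunit genes was called in the reported fit. Rela, the main activating subunit p65, was at 56.4 and 56.5 CPM after PBS and at 56.1 and 52.4 CPM after cGAMP in implanted tumours, with a 95% interval of -0.27 to 0.15 for its log2 fold change. Relb, the activating subunit of the non-canonical branch, was at 47.4 and 47.1 CPM after PBS and at 40.1 and 57.7 CPM after cGAMP, so that the treated libraries lay on either side of the controls. Nfkb1, which encodes p105 and p50, was at 117 and 113 CPM after PBS and at 92.7 and 107 CPM after cGAMP. Its log2 fold change of -0.21 ± 0.09 (SE) was not called (limma adjusted p = 0.114). Nfkb1 was called lower with limma-voom on summed UMIs (-0.25) and in cells of at least 2000 UMIs (-0.22). Without implanted cGAMP replicate 2 its log2 fold change was -0.31. Nfkb2, which encodes p100 and p52, went from 32.6 and 31.3 CPM to 42.2 and 42.1 CPM without overlap. Its log2 fold change of 0.39 ± 0.14 (SE) was not called either (limma adjusted p = 0.0709). Nfkb2 was called higher with median-of-ratios size factors (0.48), limma-voom (0.32) and all deposited cells (0.47). Traf1, an adaptor of TNF receptor signalling, was at 28.8 and 22.0 CPM after PBS and at 43.8 and 33.8 CPM after cGAMP, with a log2 fold change of 0.60 ± 0.25 (SE; limma adjusted p = 0.117).

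Other cell types' markers moved with the treatment in the implanted tumours. Among Pecam1 cells, the 11 immune markers summed to 19.7 to 35.4 CPM after PBS and to 92.0 to 314 CPM after cGAMP, and none of them was at 0 in all libraries. The 8 mural markers summed to 61.5 to 93.8 CPM and to 146 to 150 CPM, the 6 fibroblast markers to 13.3 to 18.5 CPM and to 60.1 to 89.2 CPM, and the 8 epithelial markers to 149 to 227 CPM and to 129 to 744 CPM. The 8 lymphatic markers summed to 475 to 660 CPM after PBS and to 1770 to 1809 CPM after cGAMP. When Pecam1 cells with 4 or more markers of 1 other cell type were left out, the same 5 members were called, with log2 fold changes of 0.31 for Nfkbia, 0.69 for Nfkbie, 0.97 for Tnfaip3, 0.62 for Tnfaip2 and 0.94 for Birc3. They were also called without the lymphatic marker class (0.34, 0.59, 0.96, 0.55 and 0.88 in the same order), and without the shallow library, implanted cGAMP replicate 1 (0.39, 0.90, 1.04, 0.65 and 1.36). The 4-marker and lymphatic alternatives were added with the values already known. With a stricter limit of 2 or more such markers, which 26.9 to 65.4% of Pecam1 cells per library reached, Tnfaip3 (0.82), Tnfaip2 (0.61) and Birc3 (0.97) were called, and Nfkbia (0.20, limma adjusted p = 0.161) and Nfkbie (0.42, limma adjusted p = 0.311) were not. Without the filter on low values Nfkbia, Nfkbie and Birc3 were not called. The part of the remaining markers of other cell types in the members' levels was not tested.

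In spontaneous tumours none of the 10 members was called for the cGAMP response, against 12.7% of all genes. In limma 4 members had an unadjusted p under 0.05, as did 3050 of all 10424 genes. Under limma-voom on summed UMIs 2 members were called, Nfkb2 and Nfkbie, against 24.8% of all genes. The members' median log2 fold change was 0.30, against -0.10 for all genes. Mural markers moved with the treatment here, from 145 to 487 CPM after PBS to 650.3 to 733 CPM after cGAMP, as sums over the list, and immune markers from 19.8 to 23.4 CPM to 41.0 to 50.7 CPM. The 4 members were Nfkb2, Tnfaip3, Traf1 and Nfkbie. Nfkb2 was at 24.5 and 28.3 CPM after PBS and at 42.2 and 32.0 CPM after cGAMP, a log2 fold change of 0.47 ± 0.14 (SE; limma adjusted p = 0.0571) that was 0.28 without spontaneous cGAMP replicate 1. It was called without spontaneous cGAMP replicate 2 (0.66, limma adjusted p = 0.0344). Tnfaip3 was at 18.3 and 16.2 CPM after PBS and at 22.9 and 23.4 CPM after cGAMP, a log2 fold change of 0.41 ± 0.14 (SE; limma adjusted p = 0.0816). Limma-voom put it at 0.0547 (adjusted p = 0.843). Traf1 was at 18.2 and 12.7 CPM and at 31.9 and 19.4 CPM, a log2 fold change of 0.68 ± 0.25 (SE; limma adjusted p = 0.113) that was 0.33 without spontaneous cGAMP replicate 1, 0.43 without spontaneous PBS replicate 2 and 1.02 without spontaneous cGAMP replicate 2. Nfkbie was at 15.3 and 17.7 CPM and at 23.0 and 21.3 CPM, a log2 fold change of 0.41 ± 0.18 (SE; limma adjusted p = 0.158) that was -0.0202 without Pecam1 cells holding 2 or more markers of another type and 0.69 in limma-voom. In all 4 genes, picked here by their unadjusted p, the treated libraries lay above the controls without overlap. The share of all genes without overlap was not counted.

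Tnfaip2 was almost level in spontaneous tumours, at 84.9 and 84.9 CPM after PBS and at 88.1 and 83.7 CPM after cGAMP, with a 95% interval of -0.17 to 0.21 for its log2 fold change. Nfkbia was at 607 and 583 CPM and at 671 and 634 CPM, with an interval of -0.05 to 0.31. Birc3 was at 25.6 and 22.8 CPM and at 36.5 and 25.8 CPM, with an interval of -0.23 to 0.89. Among the remaining subunits, Relb was at 44.4 and 43.1 CPM after PBS and at 53.2 and 52.4 CPM after cGAMP, a log2 fold change of 0.27 ± 0.15 (SE). Nfkb1 was at 128 and 130 CPM and at 119 and 120 CPM, a log2 fold change of -0.11 ± 0.09 (SE). Rela was at 55.0 and 58.0 CPM and at 59.2 and 54.2 CPM, with overlapping groups.

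**Figure D2:**
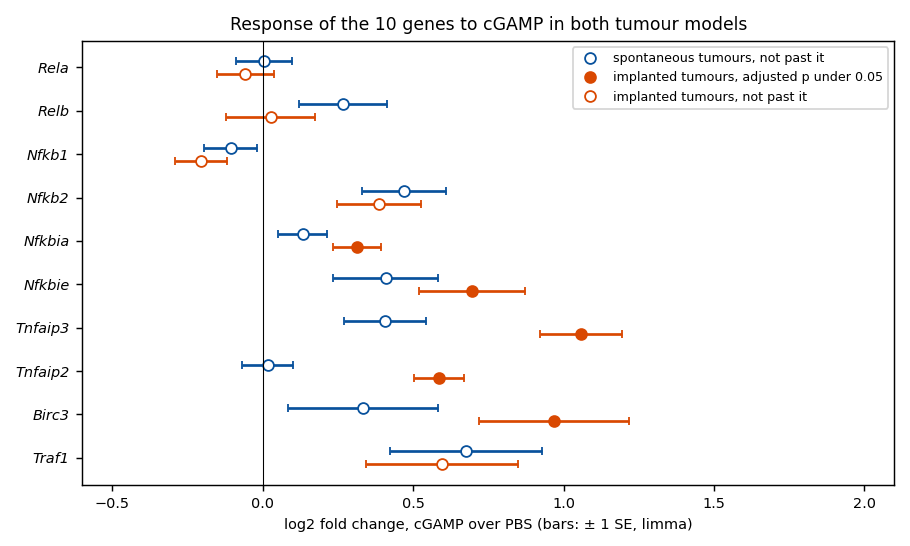
Log2 fold change of cGAMP over PBS (horizontal axis) for the 10 genes in spontaneous and implanted tumours. Points are limma estimates from 2 libraries per group, bars are ± 1 SE, and filled points have an adjusted p under 0.05. Filled points appear for 5 genes in implanted tumours, up to 1.06 for Tnfaip3, and for none in spontaneous tumours.

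A call in one model and none in the other does not show that the models differ, so the difference of the responses was tested. None of the 10 members was called for it, against 0.662% of all genes. In limma an unadjusted p under 0.05 was found for 2 of them, and for 1400 of all 10424 genes. The Tnfaip2 response was larger in implanted tumours by 0.57 ± 0.12 on the log2 scale (SE; limma adjusted p = 0.0793), and the Tnfaip3 response by 0.65 ± 0.19 (SE; limma adjusted p = 0.192). For Tnfaip2 the difference was called when Pecam1 cells with 4 or more markers of another cell type were left out (limma adjusted p = 0.0308), an alternative added with the values already known. For the other members the 95% interval of the difference included 0, and it was wide: -0.15 to 1.43 for Birc3, -0.27 to 0.85 for Nfkbie and -0.88 to 0.72 for Traf1.

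The models were then set side by side after the same injection. After PBS none of the 10 members was called between implanted and spontaneous tumours, against 7.83% of all genes. In limma 2 members had an unadjusted p under 0.05, as did 2527 of all 10424 genes. The 2 members were Traf1, higher in implanted tumours by 0.69 ± 0.25 on the log2 scale (SE; limma adjusted p = 0.131), and Nfkbie, higher by 0.50 ± 0.18 (SE; limma adjusted p = 0.118). In both, picked by that p, the libraries did not overlap, and the share of all genes without overlap was not counted. Limma-voom on summed UMIs called 1 member there, Nfkbie. After cGAMP 3 members were called, all higher in implanted tumours, against 5.23% of all genes called higher. Tnfaip3 was higher by 0.81 ± 0.14 on the log2 scale (SE; limma adjusted p = 0.00676), Nfkbie by 0.79 ± 0.18 (SE; limma adjusted p = 0.0199) and Tnfaip2 by 0.55 ± 0.08 (SE; limma adjusted p = 0.00500). None of the 3 was called without spontaneous cGAMP replicate 2, where the log2 differences were 0.82 for Tnfaip3, 0.73 for Nfkbie and 0.51 for Tnfaip2. Nfkbie was also not called without spontaneous cGAMP replicate 1 (0.84) or implanted cGAMP replicate 2 (0.58), with no filter on low values, or without cells of 2 or more markers of another type. Of the uncalled members after cGAMP, Nfkbia, Birc3, Nfkb2 and Traf1 were higher too. Nfkb1 (-0.26), Rela (-0.06) and Relb (-0.13) were lower on the log2 scale. Without implanted cGAMP replicate 2 the differences of Nfkb1 and Relb were -0.36 and -0.39. These comparisons share the libraries of the responses above.

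The vessel types of the tumour were told apart by lists of 8 marker genes, none of them a member. A Pecam1 cell was put in a class when at least 3 markers of its list had a UMI and more of them than of any other list. The classes are ranges of marker counts rather than cell types. There were 1296 arterial, 1862 venous, 794 tip, 1081 AQP7 capillary, 194 proliferative and 352 lymphatic marker cells, and 1580 cells (22.1%) fell in no class. Cells that just reached the gate were 4.47% of the arterial, 7.52% of the venous, 8.94% of the tip, 14.0% of the AQP7 capillary, 5.15% of the proliferative and 7.95% of the lymphatic class. Cells carried a median of 5 to 7 markers of their own class and of at most 3 of any other. Each class was compared with all other Pecam1 cells of the same library, so that each library was its own control.

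Arterial cells held less of Nfkbie, Tnfaip3 and Birc3 than the other ECs, and more of Tnfaip2 and Nfkbia. Of 10 members 6 were lower and 3 higher than in the other ECs, against 39.5% of all genes called. Nfkbie had a median of 8.44 CPM over the 8 libraries in arterial cells (range 5.70 to 23.2) and of 25.4 CPM in the other ECs (17.1 to 49.9), a log2 difference of -1.34 ± 0.13 (SE; limma adjusted p = 9e-08), and was lower in all 8 libraries. Tnfaip3 (-0.94 ± 0.14), Birc3 (-0.83 ± 0.15), Nfkb2 (-0.79 ± 0.12) and Relb (-0.72 ± 0.09, log2 differences with SE) were also lower in all 8 libraries, and Nfkb1 was lower by a smaller amount (-0.27 ± 0.06). Tnfaip2 went the other way, with a median of 149 CPM in arterial cells (127 to 180) and of 73.4 CPM in the other ECs (63.7 to 120). Its log2 difference was 0.92 ± 0.06 (SE; limma adjusted p = 1.03e-09), higher in 8 of 8 libraries. Nfkbia was higher by 0.40 ± 0.04 and Rela by 0.26 ± 0.08 on the log2 scale (SE), the latter not called in 3 of the 8 fits that left out 1 library each (without spontaneous PBS replicate 1, spontaneous cGAMP replicate 1 or implanted PBS replicate 2, lowest 0.19).

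Venous cells held more of Traf1, Nfkb2 and Nfkbia and less of Tnfaip2. Of the 10 members 5 were higher and 1 lower than in the other ECs, against 33.6% of all genes called. Traf1 had a median of 36.8 CPM in venous cells (21.7 to 60.1) and of 17.5 CPM in the other ECs (9.72 to 38.6), a log2 difference of 0.81 ± 0.10 (SE; limma adjusted p = 6.87e-06), higher in all 8 libraries. Nfkb2 (0.46 ± 0.08) and Nfkbia (0.36 ± 0.04, log2 differences with SE) were higher too. Nfkb1 (0.16 ± 0.05) and Relb (0.20 ± 0.07) were higher by small amounts that many alternatives did not call. Tnfaip2 was lower, at a median of 54.4 CPM in venous cells (25.9 to 111) and of 100.2 CPM in the other ECs (94.1 to 138), a log2 difference of -0.98 ± 0.07 (SE; limma adjusted p = 2.91e-08), in all 8 libraries.

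**Figure D3:**
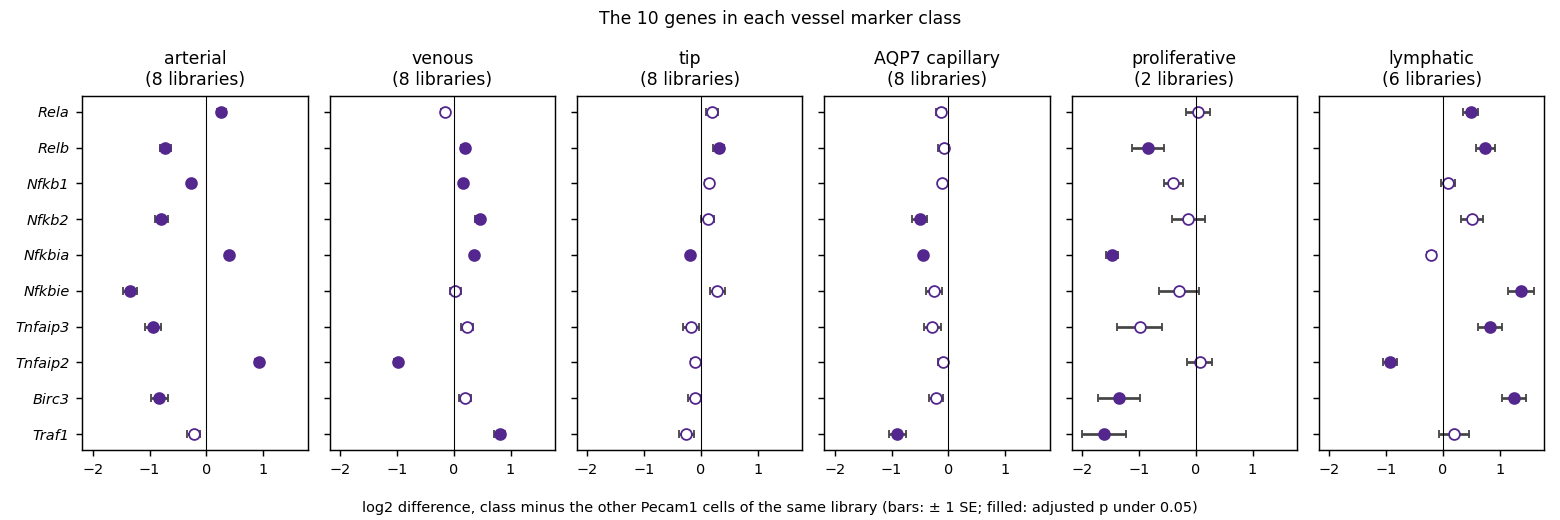
Log2 difference between the cells of a vessel marker class and the other Pecam1 cells of the same library (horizontal axes) for the 10 genes. Points are limma estimates over the libraries named above each panel, bars are ± 1 SE, and filled points have an adjusted p under 0.05. Tnfaip2 lies at 0.92 in the arterial and at -0.98 in the venous class, while Nfkbie lies at -1.34 in the arterial and at 1.38 in the lymphatic class.

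Lymphatic marker cells were compared in 6 libraries, since 1 library of the spontaneous cGAMP group had under 20 of them and the group was left out. In lymphatic cells 5 of the 10 members were higher and 1 lower than in the other ECs, against 25.8% of all genes called. Nfkbie had a median of 50.7 CPM in lymphatic cells (41.0 to 138) and of 22.7 CPM in the other ECs (14.6 to 35.8), a log2 difference of 1.38 ± 0.23 (SE; limma adjusted p = 0.00118). Birc3 had medians of 69.6 CPM (27.8 to 150.1) and 24.5 CPM, a log2 difference of 1.25 ± 0.21 (SE; limma adjusted p = 0.0012). Tnfaip3 (0.82 ± 0.21, higher in 4 of 6 libraries), Relb (0.75 ± 0.17) and Rela (0.49 ± 0.13, log2 differences with SE) were higher as well, and Tnfaip2 was lower in all 6 libraries (-0.93 ± 0.12). With lists stripped of markers that themselves changed with cGAMP, Nfkbie and Tnfaip2 were still called, and Birc3 (0.40), Tnfaip3 (0.04), Relb and Rela were not. That alternative used the venous, AQP7 capillary and lymphatic lists alone, so cells of the arterial, tip and proliferative classes could enter these classes. Without a single implanted library the call was lost for Tnfaip3 and Rela (3 libraries each: both PBS replicates and cGAMP replicate 2) and for Relb (PBS replicate 1 or cGAMP replicate 1), and Rela also without spontaneous PBS replicate 1.

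Capillary cells with AQP7 markers were low in 3 members and high in none, against 15.9% of all genes called. Nfkbia had a median of 476 CPM in these cells (406 to 640.2) and of 673 CPM in the other ECs, a log2 difference of -0.45 ± 0.04 (SE; limma adjusted p = 8.99e-08) in 8 of 8 libraries. Traf1 (-0.90 ± 0.15) and Nfkb2 (-0.51 ± 0.13, log2 differences with SE) were lower in 8 of 8 libraries too, but Nfkb2 was not called without spontaneous cGAMP replicate 1 or implanted PBS replicate 1, or with the stripped list. In tip marker cells 1 member was higher and 1 lower, against 32.2% of all genes called. These were Relb (0.31 ± 0.10), which 5 of the 8 fits without 1 library did not call, and Nfkbia (-0.20 ± 0.05, log2 differences with SE). Proliferative cells could be compared in the 2 implanted PBS libraries alone, where 4 members were lower and none higher, against 21.3% of all genes called. Nfkbia was at 210 and 252 CPM in proliferative cells and at 606 and 678 CPM in the other ECs, a log2 difference of -1.48 ± 0.11 (SE; limma adjusted p = 2.8e-08). Traf1 (-1.61 ± 0.39), Birc3 (-1.35 ± 0.37) and Relb (-0.84 ± 0.28) were the others, on 34, 41 and 154 UMIs in all proliferative cells.

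It was next asked whether the response to cGAMP differed between a class and the other ECs of the same libraries. In implanted tumours 4 members differed in venous cells, against 5.28% of all genes called, and 1 in tip cells, against 1.80%. No member differed in arterial, AQP7 capillary or lymphatic cells, against 0.742%, 0.260% and 0.222% of all genes called by limma. At an unadjusted limma p under 0.05 there was 1 member in each of the 3, and the share of all genes at that level was not counted. In spontaneous tumours no member differed in the 4 classes that could be compared, against 0.646% of all genes called by limma in arterial, 0.520% in venous, 1.21% in tip and 0.106% in AQP7 capillary cells. At an unadjusted limma p under 0.05 there were 2, 1, 3 and 1 members, again without a count over all genes. Lymphatic cells could be compared in implanted tumours alone.

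In venous cells of implanted tumours the inhibitors Tnfaip3 and Nfkbia and the target Birc3 responded less than in the other ECs, and Tnfaip2 responded more. Tnfaip3 was at 42.9 and 23.9 CPM in venous cells after PBS and at 30.8 and 29.2 CPM after cGAMP, with treated values inside the range of the controls. In cells of no class it went from 11.7 and 19.8 CPM to 66.7 and 59.6 CPM, and in AQP7 capillary cells from 20.6 and 19.8 CPM to 31.8 and 33.0 CPM. Arterial cells went from 11.1 and 10.1 CPM to 25.2 and 14.8 CPM, and tip cells from 17.8 and 15.5 CPM to 21.6 and 36.2 CPM. Lymphatic cells went from 20.8 and 17.1 CPM to 42.8 and 93.7 CPM. Cells of no class had a median of 4678 UMIs, against 13610 in venous cells, and 510 of them came from the shallow implanted cGAMP replicate 1. The venous response was lower than that of the other ECs by 1.63 on the log2 scale (-1.63 ± 0.30, SE; limma adjusted p = 0.00575). Nfkbia was at 892 and 873 CPM in venous cells after PBS and at 837 and 767 CPM after cGAMP, a difference of responses of -0.66 ± 0.12 (SE; limma adjusted p = 0.00578). Birc3 was at 40.6 and 35.6 CPM and at 31.7 and 61.9 CPM, a difference of -1.12 ± 0.29 (SE; limma adjusted p = 0.0328) that was not called on summed UMIs, in cells of at least 2000 UMIs or with any 1 of the implanted libraries left out.

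**Figure D4:**
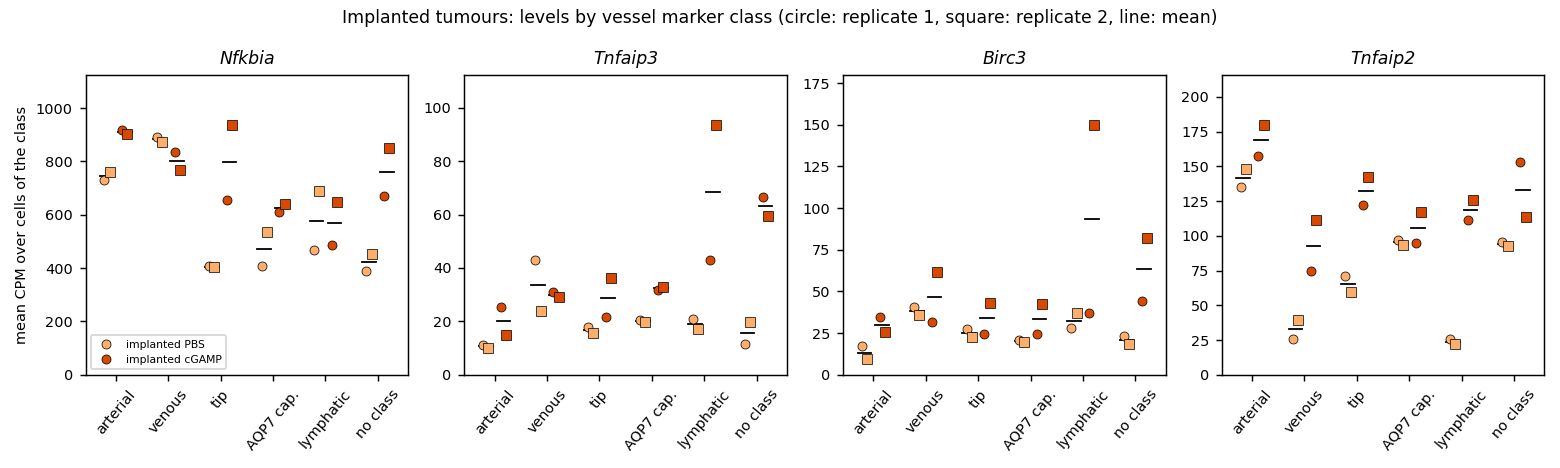
Mean CPM over the cells of each vessel marker class (vertical axes, from 0) in implanted tumours after PBS and cGAMP for 4 genes. Points are the 2 libraries of each group and lines are means. In venous cells Tnfaip3 after cGAMP (30.8 and 29.2 CPM) lies between the PBS libraries (42.9 and 23.9 CPM), while Tnfaip2 lies above them.

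Tnfaip2, which was lower in venous cells than in the other ECs, went there from 25.9 and 39.4 CPM after PBS to 74.4 and 111 CPM after cGAMP. Its response exceeded that of the other ECs by 1.05 ± 0.21 on the log2 scale (SE; limma adjusted p = 0.00852). In arterial cells it was at 135 and 148 CPM after PBS and at 157 and 180 CPM after cGAMP. In lymphatic cells it was at 25.5 and 21.8 CPM and at 111 and 126 CPM, a difference of responses of 1.73 ± 0.30 that was not called (SE; limma adjusted p = 0.0608). In tip cells Nfkbia went from 408 and 404 CPM to 657 and 938 CPM, a larger response than that of the other ECs by 0.70 ± 0.14 (SE; limma adjusted p = 0.0197). None of the 5 differences was called without implanted PBS replicate 1, 3 were called without implanted PBS replicate 2 and 2 without implanted cGAMP replicate 2. Of the 8 venous markers 5, and of the 8 tip markers 7, were themselves called for a cGAMP response. With a venous list stripped of those markers, Tnfaip3 (-1.50), Birc3 (-1.17) and Tnfaip2 (1.10) were still called and Nfkbia was not (-0.53, limma adjusted p = 0.0678). There each marker left in the venous list had to be present, and no arterial, tip or proliferative list was used, so the class also differed in its cells. A stripped tip list could not be formed, so the part of the markers in the tip difference was not tested.

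The rest of the pathway was read through gene lists chosen with earlier results of these data known. Over all genes tested, 25.0% were called in either direction in implanted and 12.7% in spontaneous tumours, and the first 2 lists lay near or under these shares. Of 22 tested kinases, adaptors and receptors, 4 rose and 2 fell in implanted tumours, and 2 rose and 1 fell in spontaneous tumours. Rnf31, the catalytic subunit of the linear ubiquitin ligase, rose in both models, from 20.2 and 17.6 CPM to 46.6 and 46.7 CPM in spontaneous tumours (log2 fold change 1.26 ± 0.14, SE) and from 25.4 and 21.2 CPM to 45.7 and 54.9 CPM in implanted tumours (1.08 ± 0.14). Its partner Rbck1 rose in spontaneous tumours by 0.48 ± 0.10 on the log2 scale (SE). Tbk1, the kinase that links STING to interferon genes (0.67 ± 0.09), and the receptor Cd40 (0.80 ± 0.22, log2 fold changes with SE) rose in implanted tumours. In spontaneous tumours Tbk1 (0.32 ± 0.09, SE; limma adjusted p = 0.0511) and Cd40 (0.13 ± 0.22, SE) were not called. Il1r1, the interleukin-1 receptor, fell in both models (-0.76 ± 0.18 in spontaneous and -0.83 ± 0.18 in implanted tumours), and the TNF receptor Tnfrsf1a fell in implanted tumours (-0.25 ± 0.08, log2 fold changes with SE).

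Of 13 tested further inhibitors and Rel, 3 rose in implanted and 1 in spontaneous tumours, and none fell. Tnip1, a binding partner of A20, rose in both models, by 0.76 ± 0.13 in spontaneous and 0.68 ± 0.13 in implanted tumours on the log2 scale (SE). Tnip2 (0.50 ± 0.13) and Nfkbid (0.83 ± 0.17, log2 fold changes with SE) rose in implanted tumours. Of 24 tested endothelial target genes, 12 rose and none fell in implanted tumours, and 8 rose and 1 fell in spontaneous tumours. The chemokine gene Ccl2 rose in both models, from 11.3 and 10.8 CPM to 391 and 209 CPM in implanted tumours (log2 fold change 4.58 ± 0.38, SE) and to 166 and 71.4 CPM in spontaneous tumours after cGAMP (3.32 ± 0.38). Cx3cl1 (1.37 ± 0.25) and the adhesion molecule Vcam1 (1.19 ± 0.24) rose, and Sele, which encodes E-selectin, fell (-1.21 ± 0.29, log2 fold changes with SE), in spontaneous tumours. Cx3cl1 was also called higher in implanted tumours (0.93 ± 0.25, SE; limma adjusted p = 0.0240). Vcam1 (0.57 ± 0.24) and Sele (-0.75 ± 0.29, log2 fold changes with SE) were not called there. The chemokine genes Ccl7 (2.52 ± 0.76) and Cxcl2 (1.66 ± 0.54, log2 fold changes with SE) rose in implanted tumours. There Ccl7 was at 48.8 and 9.89 CPM and Cxcl2 at 42.5 and 10.4 CPM in the cGAMP libraries. In spontaneous tumours Ccl7 (2.15 ± 0.76) and Cxcl2 (1.13 ± 0.54, log2 fold changes with SE) were not called. No gene of these 3 lists was called for the difference of the responses.

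Of 12 immediate early and dissociation genes, 5 rose and 2 fell in implanted tumours and 3 rose in spontaneous tumours. Fosb rose by 0.56 ± 0.14 in spontaneous and 0.77 ± 0.14 in implanted tumours, and Atf3 by 0.59 ± 0.16 in both (log2 fold changes with SE). Socs3 rose in spontaneous tumours (0.32 ± 0.08) and Dusp1 in implanted tumours (0.60 ± 0.16), and the heat shock genes Hspa1b (-1.16 ± 0.20, log2 fold changes with SE) and Hspa1a (from 312 and 324 CPM to 165 and 153 CPM) fell in implanted tumours. The part of tissue handling in the members' values was not tested.

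Across the 8 libraries, the genes whose log2 levels ran most closely with a member were named from 8374 genes of at least 10 CPM, as a description over points that share groups. Tnfaip3 ran with Nars (Pearson r = 0.990) and Cars (0.984), which encode aminoacyl-tRNA synthetases. Nfkbia ran with Pdlim1 (0.976) and Atf4 (0.973), a transcription factor of the stress response. Tnfaip2 ran with Eif2s2 (0.980) and Ddx21 (0.970), Nfkbie with Ms4a6d (0.980) and Pgs1 (0.977), and Birc3 with Mrpl52 (0.977) and Chic2 (0.964). Among the subunits, Nfkb1 ran with Pcmtd2 (0.988) and Wwc2 (0.988), and Nfkb2 with Snap23 (0.975) and Katna1 (0.972). The likeness was lower for Rela (Nfatc2ip 0.948, Snx16 0.928) and Relb (Dus3l 0.943, Rad51d 0.939), and Traf1 ran with Pdzd11 (0.972) and Parp8 (0.969).

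Among deposited cells with no Pecam1 UMI, the markers placed 92 in the mural, 93 in the epithelial and 37 in the immune list. Tnfaip2 was at 171 CPM in the immune cells, 104 CPM in the mural cells and 71.8 CPM in the epithelial cells, and Nfkbia was at 528, 310 and 402 CPM. These means over few cells have no replicate check. Implanted cGAMP libraries gave 30 of the immune and 67 of the epithelial cells, and spontaneous cGAMP libraries gave 61 of the mural cells. The types thus differ in model and treatment, and their levels do not compare cell types alone.

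The 10 genes lie on 8 chromosomes of GRCm38 in the GENCODE M21 annotation. Nfkbia spans chr12:55489410-55492647 on the minus strand, Nfkbie chr17:45555703-45563169 on the plus strand, Tnfaip3 chr10:19000910-19015657 on the minus strand, Tnfaip2 chr12:111442469-111455018 on the plus strand and Birc3 chr9:7848699-7873186 on the minus strand. Nfkb1 spans chr3:135584655-135691547, Relb chr7:19606217-19629438 and Traf1 chr2:34941750-34961772 on the minus strand, and Nfkb2 chr19:46304320-46312385 and Rela chr19:5637483-5648130 on the plus strand. Tnfaip2 overlaps an annotated antisense gene, Gm40578, and Nfkb2 overlaps Psd and another gene on the opposite strand, so their counts could include reads of those genes if strand was not used. Nfkb1 overlaps Gm43430 on its own strand, whose reads strand cannot separate.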

How the data were processed

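The deposited files hold 1 matrix of genes by cells per library on a natural log scale, made by the authors by scaling each cell's UMIs to 10000, adding 1 and taking the natural log. The submitters' processing notes name Cell Ranger 3.0.0, Seurat 3.1.1 and the build mm10. Values were turned back to CPM, and UMIs were recovered from each cell's smallest value (all values whole within 0.01). Mean CPM over Pecam1 cells was tested on the log2 scale, log2(CPM + 1), with limma 3.58.1 (trend, R 4.3.3) over genes that reached 5 CPM in 2 libraries or more, all 8 libraries in 1 fit, Benjamini-Hochberg over all genes. A log2 fold change on this scale understates the change of low genes. Class differences were fitted the same way, per class, in libraries with at least 20 cells of the class. The counts-based branch of the plan was not used, since the deposited unit is not counts. The 10 members, gene lists and marker lists were chosen with earlier results of these data known. The genes named from each list were the up to 3 called genes of largest log2 fold change in each direction with at least 10 CPM. Levels rest on 7451522 to 16338968 UMIs in Pecam1 cells per library. The fits were tested on simulated data. Alternatives changed the pseudocount (10 and 0.1 CPM), the filter, scaling, cells, gate and libraries used. Promoters are from RefSeq (GRCm38.p6). No doublet caller was run here, and the study's methods name none for these cells, so doublets may remain. How the authors chose the deposited cells was not reworked here.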

Additional observations from a re-analysis of the deposited data

Results flagged for a closer look

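The response to cGAMP in implanted tumours differed between a vessel marker class and the other ECs of the same libraries for 5 pairs of gene and class, by a limma test of the difference itself with Benjamini-Hochberg adjustment. In venous cells the difference of responses was -1.63 for Tnfaip3, -0.66 for Nfkbia, -1.12 for Birc3 and 1.05 for Tnfaip2 on the log2 scale. In tip cells it was 0.70 for Nfkbia. Each rests on 2 libraries per group, and no pair was called without implanted PBS replicate 1.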

How the results depend on the processing

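The response in implanted tumours gave 5 called members, against 25.0% of all genes called in either direction. It gave 2 with no filter on low values, against 11.6% of all genes. With limma-voom on summed UMIs it gave 8, with Nfkb1 among them as lower, against 37.0% of all genes. Without Pecam1 cells holding 2 or more markers of another cell type it gave 3 (not Nfkbia or Nfkbie), against 14.9%. In spontaneous tumours, with none called, median-of-ratios size factors and limma-voom called 2 each, and 1 was called with cells of at least 2000 UMIs, without the proliferative class, without cells holding 4 or more markers of another type and without the lymphatic class. For the difference of responses 1 was called without cells holding 4 or more such markers. Between the models after PBS, 1 was called with limma-voom and without the lymphatic class, and after cGAMP limma-voom called 5. For the response of vessel classes, sums of UMIs per class called 8. Leaving out 1 library each gave 0 to 1 calls for the spontaneous response, 3 to 6 for the implanted response, 0 to 4 between the models after cGAMP and 0 to 6 for the class responses. The cause of these changes was not tested.

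Replicate numbers did not pair the libraries: the correlation of same-numbered deviations ran from -0.22 to 0.13. With the replicate number as a block, Traf1 was called in each comparison but the difference of responses. The block called 1 member in spontaneous tumours, 6 in implanted tumours, 1 between the models after PBS and 4 after cGAMP. Over all genes it called 11.8%, 24.2%, 7.11% and 13.1% in the same order.

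Each result whose direction turned was uncalled in the reported fit, and its values are on the log2 scale. For the response in spontaneous tumours, Nfkbie was at -0.0202 without cells of 2 or more other markers. Tnfaip2 was at -0.0747 without cells of 4 or more other markers and -0.00361 without the lymphatic class, and it ran from -0.0197 to 0.0523 when 1 library was left out. Rela was at -0.0353 with limma-voom, -0.0378 with cells of at least 2000 UMIs, -0.0606 without cells of 2 or more other markers and -0.053 without cells of 4 or more other markers, and it ran from -0.0587 to 0.0668 when 1 library was left out. For the response in implanted tumours, Rela was at 0.0384 with median-of-ratios factors and 0.0511 with limma-voom. Relb was at -0.0109 with limma-voom, -0.0116 without the proliferative class and -0.0336 without the lymphatic class, and it ran from -0.23 to 0.28 when 1 library was left out. For the difference of responses, Nfkb1 ran from -0.20 to 0.000233 when 1 library was left out. Nfkb2 was at 0.0521 with all deposited cells, and it ran from -0.28 to 0.11 when 1 library was left out. Rela was at 0.0864 with limma-voom, 0.0198 with cells of at least 2000 UMIs and 0.022 without cells of 2 or more other markers, and it ran from -0.12 to 0.00106 when 1 library was left out. Relb ran from -0.50 to 0.0158 when 1 library was left out. Traf1 ran from -0.42 to 0.26 when 1 library was left out. Between the models after PBS, Nfkbia ran from -0.0239 to 0.12 when 1 library was left out. Tnfaip3 was at -0.00206 with limma-voom. Tnfaip2 was at 0.0657 with median-of-ratios factors, 0.0791 with limma-voom, 0.00165 with all deposited cells, 0.12 with cells of at least 2000 UMIs, 0.0428 without cells of 2 or more other markers and 0.000888 without the lymphatic class, and it ran from -0.0599 to 0.0219 when 1 library was left out. Birc3 was at 0.0287 with median-of-ratios factors and 0.13 without the lymphatic class, and it ran from -0.22 to 0.11 when 1 library was left out. Rela was at 0.0836 with median-of-ratios factors, 0.00461 without cells of 2 or more other markers, 0.00036 without cells of 4 or more other markers and 0.0301 without the lymphatic class, and it ran from -0.0383 to 0.0372 when 1 library was left out. Between the models after cGAMP, Nfkb2 ran from -0.00186 to 0.39 when 1 library was left out. Rela was at 0.018 with median-of-ratios factors, 0.0134 with limma-voom, 0.00205 with cells of at least 2000 UMIs and 0.0266 without cells of 2 or more other markers, and it ran from -0.13 to 0.000489 when 1 library was left out. Relb was at 0.0615 without cells of 2 or more other markers, and it ran from -0.39 to 0.13 when 1 library was left out.

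With 2 libraries per group, small changes of low genes could not be resolved, and implanted cGAMP replicate 1 was shallow. Marker lists without genes called for cGAMP could not be formed for arterial, tip and proliferative cells.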
